A study of Mus musculus with 2 samples.

Results

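Natural killer (NK) cells were picked from single-cell libraries of primary tumours and of lymph nodes (LNs) of the same mice. A cell was selected on its UMIs (unique molecular identifiers, each standing for 1 captured transcript). It needed at least 2 UMIs of Ncr1, Klrb1c and Klre1 together, at most 1 of Cd3d, Cd3e and Cd3g, at most 1 of Cd79a and Cd79b, and fewer than 20 of Krt8 and Krt18. This gate held 52 of 21258 kept cells, 19 of 9989 in the primary tumour (0.190%, exact Clopper-Pearson interval 0.115% to 0.297%) and 33 of 11269 in the lymph node (0.293%, 0.202% to 0.411%).

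The mice were C57BL/6J animals bearing EO771-HEVM3 tumours. This tumour line was derived from EO771 mouse mammary carcinoma cells by serial selection in mice for spread through the high endothelial venules of nodes, so both tissues come from bearers of 1 selected line. Each tissue gave 1 library made from 6 pooled mice, and no label ties a cell to an animal. Tumours were digested for 2 h and nodes for 1 h with different enzymes, so tissue, digestion and library cannot be told apart. The LN library was itself colonised, with 1002 cells in a keratin gate against 6248 in the tumour. With 1 library per tissue no test was possible, the differences have no replicate check, and every bracketed 95% interval covers counting error only.

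NK cells are lymphocytes that kill without a rearranged antigen receptor. Their readiness to kill is set by activating receptors, which signal through small adaptor proteins such as DAP12 (Tyrobp), and by inhibitory receptors that read MHC class I on the target. On contact they release granules that hold perforin, which opens membranes, and granzymes, proteases that start cell death, and they secrete interferon-gamma and chemokines that call in other leukocytes. In LNs they are rare and sit apart from the B-cell follicles, and they enter from blood through high endothelial venules.

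The label was checked against 10 NK genes that the gate did not use, namely Klrd1, Klrk1, Nkg7, Gzma, Prf1, Eomes, Tyrobp, Fcer1g, Txk and Klra8. Each of 46 cells had at least 3 UMIs of these genes. That limit alone does not tell NK from T cells, since 71.8% of tumour and 27.7% of LN T cells also met it, and the Cd3 limit of the gate allows 1 UMI, so that cells with T-cell transcripts can remain. A further 6 cells were set apart after their values had been seen, by over 10000 UMIs or at least 10 UMIs of fibroblast markers. Of these, 5 were the deepest cells of the LN gate, with 91703, 52497, 50776, 35221 and 32254 UMIs. They had no Ncr1 or Klrb1c and passed on 2 to 5 UMIs of Klre1, and they held 2, 0, 29, 0 and 0 UMIs of the 10 genes. The deepest carried 514 UMIs of Glycam1, 302 of Chst4 and 210 of Fut7, which are genes of high endothelial cells, together with 1735 of the chemokine Ccl5 and 1461 of the interferon-induced Rsad2. The cell of 52497 UMIs carried 173 of Ptcra, and 4 of the 5 held between 259 and 362 UMIs of Cdkn1a, a cell cycle inhibitor gene induced by p53. The sixth, a tumour cell of 5074 UMIs, had 2 UMIs of Klrb1c, none of the 10 genes, no Ptprc (the pan-leukocyte gene CD45) and 137 UMIs of fibroblast markers, Col1a1, Col1a2 and Col3a1 among them.

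These few cells weighed heavily on sums. The 5 LN cells contributed 262451 of the 356464 UMIs of the LN gate (73.6%). In the remaining 46 cells depths were alike, with 1028 to 9126 UMIs and a median of 2700 in 18 tumour cells, and 1389 to 8542 with a median of 2812 in 28 LN cells. The summed libraries were 59746 and 94013 UMIs, so 1 UMI stood for 16.7 and 10.6 counts per 1000000 (CPM), respectively. Values below are for these 46 cells unless the 52 are named. Graph clustering within each library, on the 1000 most variable genes, left the tumour cells in 1 cluster of 19 and split the LN cells into 28 and 5, the 5 being the deep cells.

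**Figure D1:**
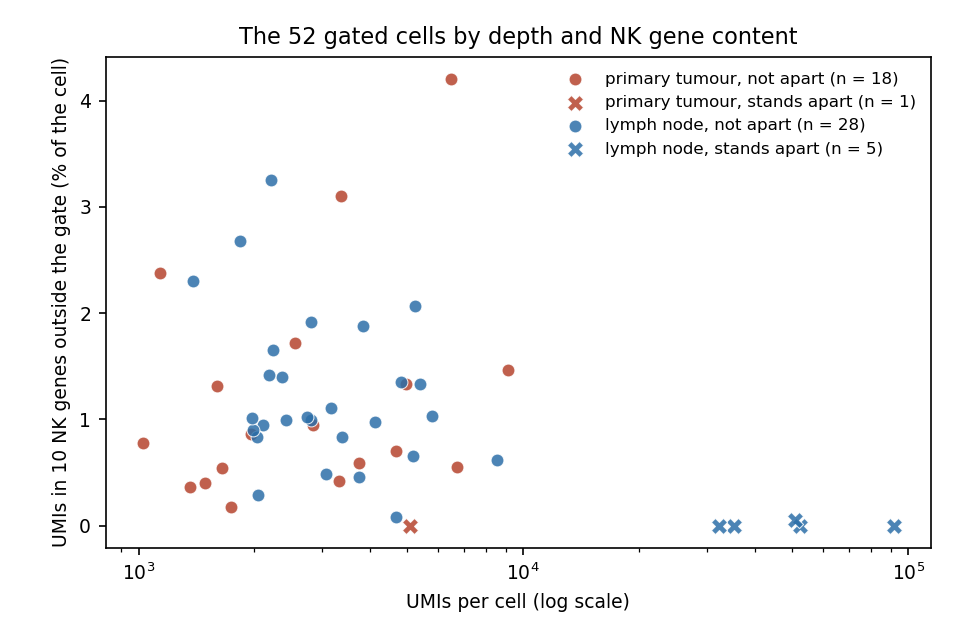
Each point is 1 of the 52 gated cells, by its UMIs (x axis, log scale) and by the percentage of its UMIs that fell in 10 NK genes not used for selection (y axis). Crosses mark the 6 cells set apart. The 5 from the lymph node lie at 32254 UMIs or more with a share of NK genes close to the axis, although the cell of 50776 UMIs held 29 such UMIs.

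Near the threshold, 10 tumour and 15 LN cells of the 52 had a gate sum of exactly 2, with medians of 21.5 and 28 UMIs of the 10 genes. Just outside, with a sum of 1, lay 21 tumour and 31 LN cells, with medians of 9 and 14, and 16 and 23 of them had at least 3 such UMIs. The gate therefore left out cells that carried other NK genes. A further 30 tumour and 17 LN cells met the NK limit and also had 2 or more Cd3 UMIs, and these were kept apart. No NK barcode of one library occurred in the other, although 47 barcodes were shared between all deposited cells.

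Some markers of other cells were absent from the 46 and others were not. Cd3e, Cd4, Cd5 and Cd6 were at 0 in both tissues, as were the macrophage genes C1qa, C1qb, C1qc and Adgre1 and all 6 type 3 innate lymphoid genes. The T-cell list summed to 42 UMIs in the tumour (703 CPM) and 83 in the node (883 CPM), against 287 and 864 CPM in all other kept cells, of which the constant-region gene Trbc1 gave 29 and 32 and Trbc2 gave 5 and 36. The macrophage list summed to 45 UMIs in the tumour, 32 of them in the deepest cell, which also had 14 UMIs of Lyz2 and 21 of Cd74, and to 58 in the node, there from Ccr2, Ly6c2 and Apoe alone. Its level was 753 and 617 CPM, against 294 and 290 CPM in all other kept cells. In 1 LN cell 15 UMIs of the T-cell list and 16 of the macrophage list stood against 4 of the 10 NK genes, and in 1 tumour cell 9 of the T-cell list against 6. Cancer-cell markers summed to 8 and 11 UMIs. The median mitochondrial share was 2.92% in tumour and 1.87% in LN cells. The part of these RNAs in the differences that follow was tested only by leaving cells out, where stated.

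Genes were compared by the log2 ratio of tumour over LN CPM, computed on UMIs summed over cells with 0.5 count added to each sum, and only where both sums together reached 30 UMIs. In the 46 cells 719 genes could be compared. Of these 6.12% were at least 2-fold higher in the tumour and 12.4% at least 2-fold lower, and the median log2 ratio was -0.10. In the 52 cells the same limits gave 2214 genes, 13.8% higher and 31.7% lower, with a median of -0.31. The gate genes were present on both sides, with 937 CPM in tumour and 1032 CPM in LN cells. As the genes that selected the cells, they are given as a description only. Klre1 had 368 and 532 CPM, Ncr1 had 167 and 319 CPM, and Klrb1c (NK1.1) had 402 and 181 CPM.

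**Figure D2:**
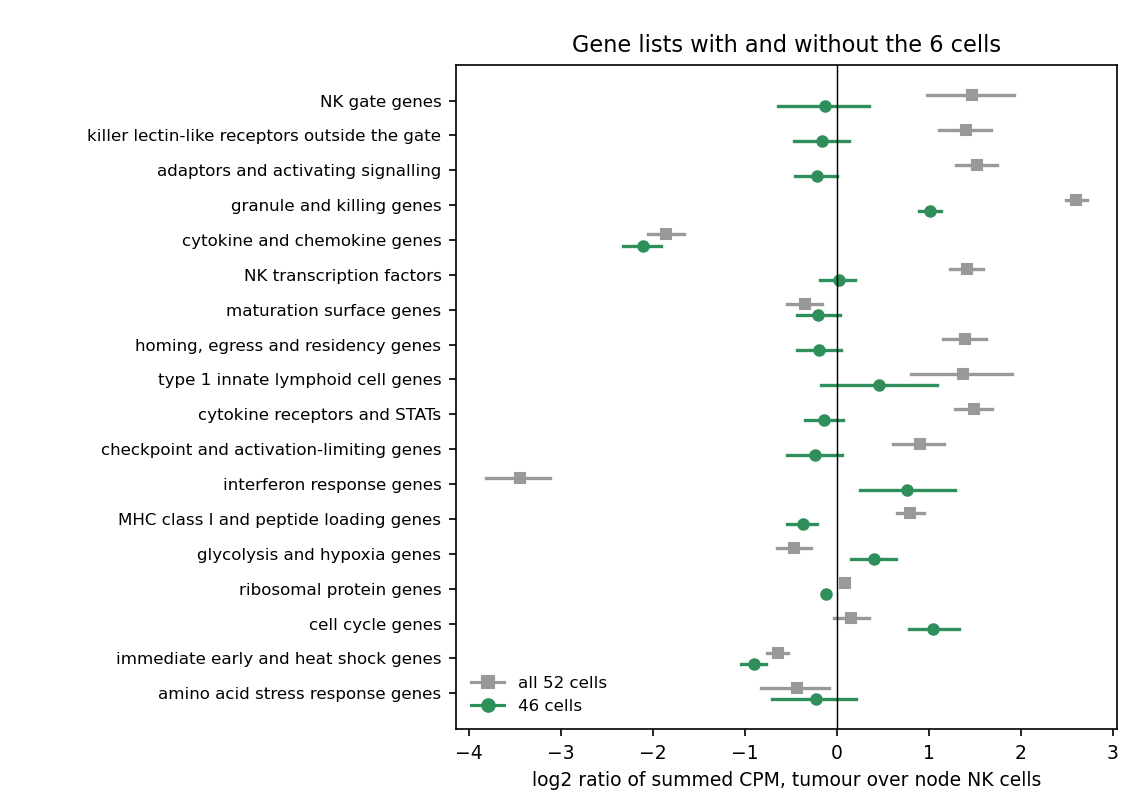
Log2 ratios (x axis, tumour over lymph node) of CPM summed over each gene list, for all 52 gated cells (squares) and for the 46 (circles), with counting intervals as bars. Most NK lists stand near 1.4 to 1.5 with the 6 cells and near 0 without them, while the granule list stays above 0 and the cytokine and chemokine list below 0 in both.

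The summed granule list was higher, and the summed cytokine and chemokine list lower, in tumour than in LN NK cells. Of 11 granule and killing genes compared, 4 were at least 2-fold higher in tumour NK cells (Gzmb, Gzmc, Gzmd and Gzmf) and none lower. Of 5 cytokine and chemokine genes compared, none was higher and 3 were lower (Ccl5, Ccl4 and Ifng). Over all 719 genes 6.12% were higher and 12.4% lower, the shares to set beside these and the list counts below. A count of 1 in a short list cannot be told from these shares. The granule list summed to 20152 CPM in the tumour and 10009 CPM in the node, a log2 ratio of 1.01 (0.89 to 1.13), and its median gene stood at 0.73, whether genes with 0 UMIs were taken at their fitted value or at their bound. The granule ratio was 0.15 without the cells with T-cell genes, and the tumour sum leaned on 3 cells, which held 86, 214 and 72 UMIs of Gzma and 74, 116 and 122 UMIs of granzymes C to G. The cytokine and chemokine list summed to 3716 and 16094 CPM, a log2 ratio of -2.11 (-2.32 to -1.91), with a median gene of -1.68. Receptors, adaptors and transcription factors moved little in sum.

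Surface receptors were alike in sum, although 4 of the 6 genes compared had log2 ratios below 0. The 22 killer lectin-like receptor genes outside the gate summed to 2561 CPM in tumour and 2861 CPM in LN cells, a log2 ratio of -0.16 (-0.46 to 0.13). Of 6 compared, none was 2-fold higher and 1 was lower, and the median gene stood at -0.56. The gene past 2-fold was Klra4, which encodes the Ly49D receptor that signals through DAP12. It had 2 UMIs in 1 tumour cell against 31 in 10 LN cells, a log2 ratio of -3.00 (-6.41 to -1.33). Klra4 was also found outside these cells, as deep LN cells set apart held 27, 14 and 4 UMIs of it. After thinning to 1000 UMIs it was found in 27.0% of LN NK cells and 0.665% of tumour cancer cells. Its relatives differed less. Klra7 had 22 and 19 UMIs (log2 ratio 0.86, -0.09 to 1.83), Klra8, which encodes the Ly49H receptor, had 15 and 35 (-0.54, -1.55 to 0.34), and Klra9 had 18 and 22 (0.37, -0.62 to 1.33). Each of these 3 relatives was found in 4 to 10 cells a tissue. Klrd1, the CD94 partner of the NKG2 receptors, had 335 and 511 CPM. Klrk1, which encodes the activating receptor NKG2D, was found in 8 of 18 tumour and 21 of 28 LN cells, at 201 and 362 CPM. In a check of transcript ends, where 3′ libraries are read, Klra4, Klra7 and Klra8 shared no stretch of 91 bases with other Klra genes, and Klra9 shared 1.46% of its stretches.

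Adaptors were expressed at levels of the same order in both tissues. The list of 19 measured genes summed to 4268 and 4989 CPM, a log2 ratio of -0.22 (-0.45 to -0.00), and none of 4 compared was past 2-fold, with a median gene of -0.61. Fcer1g, the signalling chain of Fc receptors and natural cytotoxicity receptors, was found in 17 of 18 tumour cells (median 4.0, highest 20 UMIs) and 27 of 28 LN cells (median 5.0, highest 11), at 1791 and 1585 CPM. Tyrobp ranged from 0 to 15 UMIs in tumour cells, with a median of 3.5, and from 0 to 18 in LN cells, with a median of 5.0. Its CPM was 1255 and 1936, a log2 ratio of -0.62 (-1.03 to -0.23). The per-cell ranges of both genes overlapped widely. T cells of the same libraries, gated on at least 2 Cd3 UMIs (406 tumour and 3337 LN cells within the same depth and fibroblast limits), had 74.3 and 23.8 CPM of Tyrobp.

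Granzymes carried the granule difference, and not all of them to the same degree. Gzma, a tryptase-like granzyme, was the leading granule gene in both tissues. It was found in 13 of 18 tumour cells (median 4.5, highest 214 UMIs) and in 25 of 28 LN cells (median 10.0, highest 51). Its CPM was 8168 and 4467, a log2 ratio of 0.87 (0.68 to 1.06). The tumour value leaned on single cells, since without the highest cell of each tissue the levels were 5146 and 4156 CPM. After each cell was thinned to 1000 UMIs, 63.5% of tumour (35.7% to 82.7%) and 85.1% of LN NK cells (67.3% to 96.0%) had a Gzma UMI, against 72.2% and 89.3% before thinning. The corresponding share was 0 in LN B cells and 0.0217% in tumour cancer cells, at median depths of 1823 and 18441 UMIs.

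Gzmb, the granzyme that cleaves caspases, differed more and over more cells. It was found in 14 of 18 tumour cells (median 2.0, highest 36 UMIs) and 13 of 28 LN cells (median 0, highest 9). Its CPM was 1607 and 404, a log2 ratio of 1.98 (1.44 to 2.57), and 1127 and 315 without the highest cell of each. After thinning to 1000 UMIs, 57.2% of tumour (30.8% to 78.5%) and 26.2% of LN NK cells (10.7% to 44.9%) had a Gzmb UMI. The counts of cells with a UMI of each granzyme also differed, although a missing UMI in sparse counts does not show absence. In the tumour 13 cells had both Gzma and Gzmb, 1 had Gzmb alone and none had Gzma alone, whereas in the node 13 had both and 12 had Gzma alone. Prf1, which encodes perforin, was found in 13 tumour and 14 LN cells at 619 and 372 CPM, a log2 ratio of 0.73 (0.03 to 1.44).

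The neighbouring granzymes C to G were confined to tumour cells apart from 1 LN cell. They summed to 343 UMIs in 5 of 18 tumour cells, with 122, 116, 74, 30 and 1 UMIs, and to 2 UMIs in 1 of 28 LN cells. Gzmc had 101 UMIs in 5 tumour cells (1690 CPM) and 0 in the node, at least 53.0-fold higher against a floor of 3 UMIs for the summed LN cells. Gzmd had 108 UMIs in 4 tumour cells (1808 CPM) and 0 in the node, at least 56.6-fold higher. The same cells held the other members. Gzme had 29 UMIs in 3 tumour cells and Gzmg 23 in 1, both at 0 in the node, and Gzmf had 82 UMIs in 2 tumour cells against 2 UMIs in 1 LN cell. For Gzmf the log2 ratio was 5.70 (4.11 to 9.08). In 28 LN cells a count of 0 after thinning to 1000 UMIs still allowed up to 12.3% of cells with a Gzmd UMI. Of the 5 tumour cells, 3 had 3 UMIs each of Trbc1, and the deepest was the cell with Lyz2 and Cd74 UMIs.

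**Figure D3:**
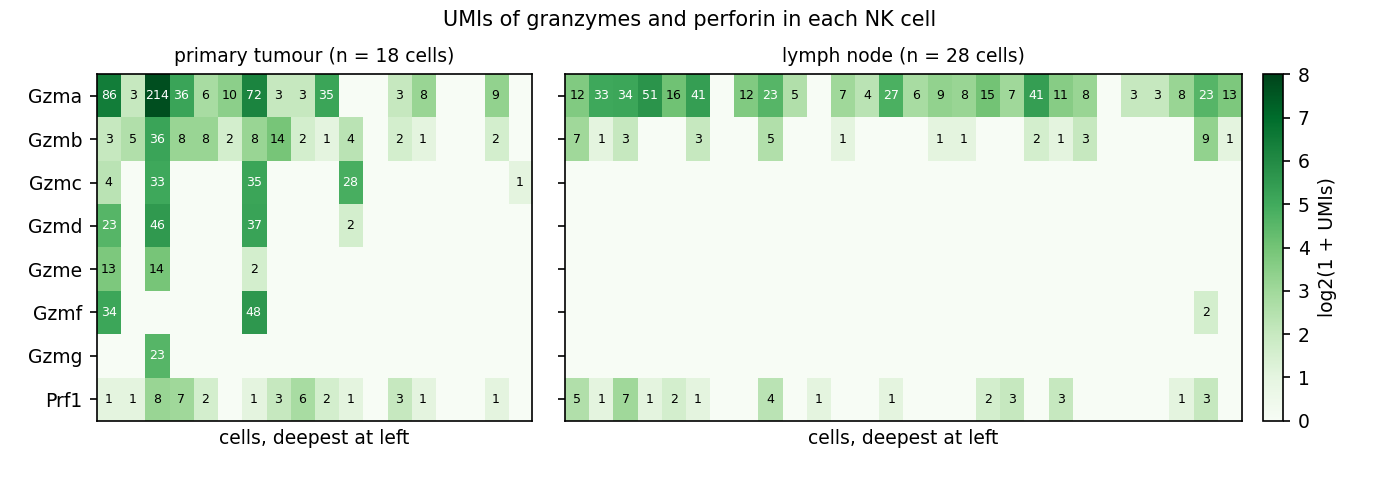
UMIs of 7 granzyme genes and perforin (rows) in each of the 18 tumour and 28 lymph node NK cells (columns, deepest at left), printed in the boxes, with colour on a log2(1 + UMIs) scale. Gzma fills most cells of both tissues, Gzmb is denser in the tumour, and Gzmc to Gzmg lie in 5 tumour cells and 1 lymph node cell.

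Gzmb to Gzmg lie within 145 kb on chromosome 14 (GRCm38, chr14:56117626-56262260 from the GENCODE vM21 gene models), and Gzma lies apart on chromosome 13. Because Gzmc to Gzmg were seen together in the same few cells, the 150 bases before each start site are shown, chosen after these values were seen. The sequences are from RefSeq (GRCm38.p6) and run 5′ to 3′ towards the start site. Capitals mark TGTGGT or its complement ACCACA, the letters bound by RUNX factors, and TGACGTCA, the palindrome of the cAMP response element, each searched on both strands.
Gzmc (chr14:56234658-56234807, minus strand): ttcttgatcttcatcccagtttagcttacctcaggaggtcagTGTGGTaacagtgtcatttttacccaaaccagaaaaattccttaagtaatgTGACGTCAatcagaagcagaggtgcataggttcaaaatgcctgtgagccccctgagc
Gzmd (chr14:56132594-56132743, minus strand): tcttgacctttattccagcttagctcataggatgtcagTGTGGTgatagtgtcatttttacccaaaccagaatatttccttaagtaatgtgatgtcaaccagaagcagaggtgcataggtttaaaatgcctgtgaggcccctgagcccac
Gzme (chr14:56120626-56120775, minus strand): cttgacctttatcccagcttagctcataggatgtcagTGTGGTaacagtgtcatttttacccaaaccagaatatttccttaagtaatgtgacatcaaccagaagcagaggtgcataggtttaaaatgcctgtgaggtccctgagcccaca
Gzmf (chr14:56211408-56211557, minus strand): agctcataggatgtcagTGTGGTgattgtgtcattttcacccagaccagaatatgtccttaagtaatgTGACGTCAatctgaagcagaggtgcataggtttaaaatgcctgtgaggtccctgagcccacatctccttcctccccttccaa
Gzmg (chr14:56159580-56159729, minus strand): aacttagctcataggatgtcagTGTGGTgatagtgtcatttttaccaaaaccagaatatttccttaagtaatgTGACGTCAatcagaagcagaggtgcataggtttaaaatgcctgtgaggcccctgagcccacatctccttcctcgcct
Gzmb (chr14:56262335-56262484, minus strand): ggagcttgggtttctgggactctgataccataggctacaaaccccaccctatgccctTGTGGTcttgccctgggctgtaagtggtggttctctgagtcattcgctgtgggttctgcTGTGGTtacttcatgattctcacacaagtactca
Gzma (chr13:113100982-113101131, minus strand): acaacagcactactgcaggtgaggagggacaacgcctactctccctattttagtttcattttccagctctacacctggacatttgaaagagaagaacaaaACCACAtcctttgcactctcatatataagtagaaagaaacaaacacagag

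Gzmc to Gzmg are close copies in this stretch. Over 230 to 251 aligned bases of the 250 before the start, the 10 pairs of these genes were 83.3% to 95.2% identical. TGTGGT or its complement was found in all 7 windows, with 2 copies in Gzmb and 1 in each other, against 8.40% of 32851 mouse promoters searched over the same 150 bases. TGACGTCA was found in Gzmc, Gzmf and Gzmg, starting 57, 82 and 77 bases before the start site, against 1.36% of all promoters. These are letter matches and not measured sites. The transcript ends of these 7 genes were largely distinct. Gzma, Gzmb, Gzmc, Gzmf and Gzmg shared no stretch of 91 bases of their last 500 with another of the 7. Gzmd and Gzme shared 1.46% of their stretches, and how far this blurs their split of UMIs was not measured. Other granzyme genes were not searched.

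T cells also had more of these genes in the tumour, at lower levels than NK cells. For Gzma tumour and LN T cells had 186 and 7.46 CPM, for Gzmb 388 and 17.3 CPM, and for Gzmc 78.4 and 0.966 CPM. Gzmf reached 362 CPM in tumour T cells against 0.351 in the node. The tumour NK cells with Gzmf held 48 and 34 UMIs of it and 3 UMIs each of Trbc1. For Gzmf the order of NK over T cells therefore rests on cells with T-cell genes. The cells that met both the NK and the Cd3 limit (27 and 15 within the depth limits) had 858 and 204 CPM of Gzmb and 507 and 0 CPM of Gzmd. The other granule genes compared were nearer to even. Nkg7, a granule membrane gene, had 803 and 1128 CPM, the granule proteoglycan gene Srgn had 937 and 1351 CPM, and Serpinb9, the inhibitor that shields the killer from its own granzyme B, had 569 and 755 CPM. Ctsw, a cathepsin gene of killer lymphocytes, had 351 and 404 CPM, and Serpinb6b, another serpin gene, had 653 and 606 CPM.

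The granule result depended on which cells were counted. In 8 tumour and 10 LN cells the genes Trac, Trbc1, Trbc2, Cd4, Cd5, Cd6, Cd8a and Cd8b1 together gave 3 or more UMIs. Without these cells the granule list stood at a log2 ratio of 0.15 instead of 1.01, and granzymes C to G at 31 UMIs in 2 tumour cells and 0 in the node. The cause of that fall was not tested. Without the 1 tumour cell that had myeloid genes, granzymes C to G stood at 269 UMIs in 4 cells, and the list at 0.98.

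Chemokines ran the other way, and Ccl5 made up most of the difference. Ccl5 (RANTES), a chemokine that draws T cells, monocytes and dendritic cells, had 100 UMIs in 9 of 18 tumour cells, with a median of 0.5 and a highest value of 30. In the node it had 1169 UMIs in 27 of 28 cells, with a median of 40.0 and a highest value of 92. The level was 1674 CPM (1362 to 2036) in the tumour and 12434 CPM (11732 to 13168) in the node, a log2 ratio of -2.89 (-3.20 to -2.60). The ranges overlapped, since 2 tumour cells of only 1650 and 1134 UMIs held 30 and 27 UMIs of Ccl5. After thinning to 1000 UMIs, 41.1% of tumour (17.3% to 64.3%) and 93.5% of LN NK cells (76.5% to 99.1%) had a Ccl5 UMI, against 9 of 18 and 27 of 28 cells before, and against 1.69% of LN B cells and 0.845% of tumour cancer cells. Without the cells with T-cell genes the levels were 3223 and 12660 CPM, and over all alternatives the log2 ratio of Ccl5 in the 46 cells lay between -3.25 and -1.97.

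T cells had the opposite order. Ccl5 was 3474 CPM in tumour and 803 CPM in LN T cells, so that LN NK cells stood far above LN T cells, and tumour NK cells below tumour T cells. Cells that met both limits had 2632 and 8533 CPM. In the node Ccl5 and Gzma were each present in nearly all cells, 24 of 28 having both. In the tumour 7 of 18 cells had both and 6 had Gzma without Ccl5.

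In the node the secreted factors below were found in fewer cells than Ccl5. In the tumour Tgfb1 was found in more, 12 cells against 9. Ccl4 (MIP-1 beta), a related chemokine, had 26 UMIs in 6 tumour cells and 133 in 11 LN cells, 66 of them in 1 cell, at 435 and 1415 CPM (log2 ratio -1.68, -2.37 to -1.09). Ifng, the gene of interferon-gamma, had 7 UMIs in 4 tumour cells and 52 in 12 LN cells, at 117 and 553 CPM (-2.15, -3.62 to -1.09). The highest LN cells held 18 and 10 of these UMIs. After thinning to 1000 UMIs the shares of cells with Ifng overlapped, at 11.9% of tumour (1.38% to 34.7%) and 25.5% of LN NK cells (10.7% to 44.9%). Tumour T cells again exceeded LN T cells, with 1207 and 11.4 CPM of Ccl4 and 264 and 17.6 CPM of Ifng. Xcl1, which attracts cross-presenting dendritic cells, differed less in NK cells, with 519 and 808 CPM (-0.63, -1.29 to -0.02), and Tgfb1 had 603 and 436 CPM (0.47, -0.22 to 1.15). Tnf, Csf2 and Lta had at most 1 UMI in the 46 cells.

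**Figure D4:**
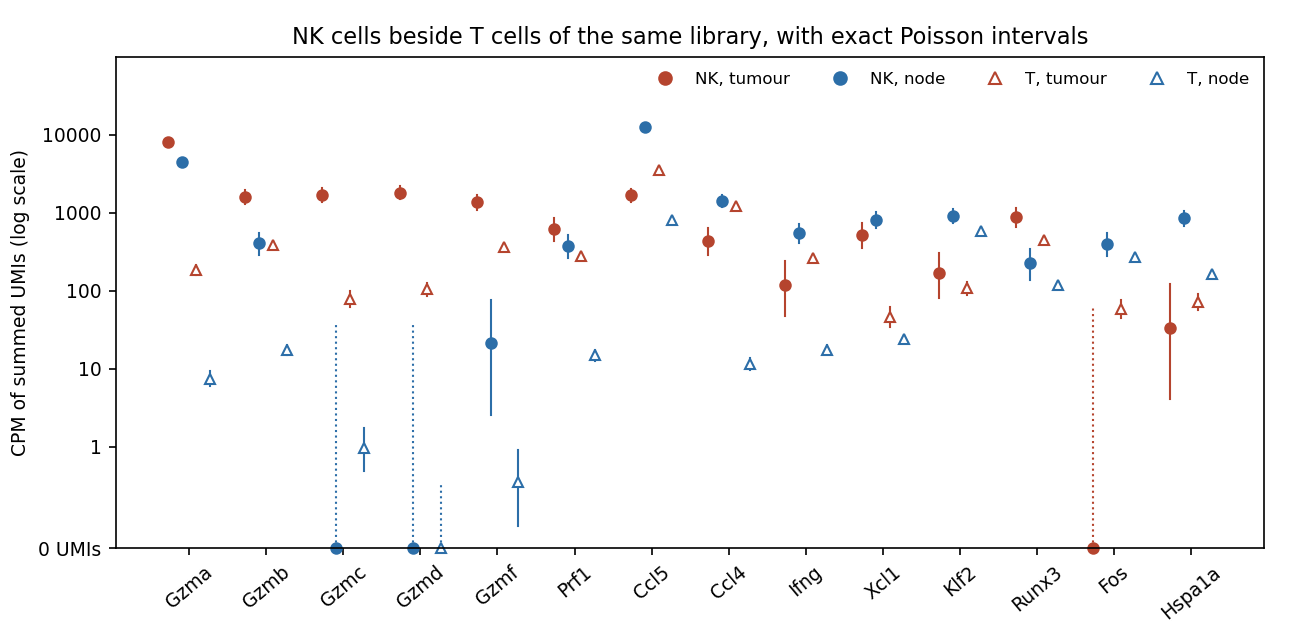
CPM of summed UMIs (y axis, log scale, with 0 UMIs drawn on the axis) for 14 genes in NK cells (circles, 18 tumour and 28 lymph node cells) and T cells (triangles, 406 and 3337 cells), with exact Poisson intervals as bars (dotted up to the limit that a count of 0 allows). Gzmc, Gzmd and Gzmf are higher in tumour than in lymph node cells of both types, whereas Ccl5, Ccl4 and Ifng are lower in tumour than in lymph node NK cells and higher in tumour than in lymph node T cells.

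The transcription factors that make NK cells were alike in sum, at 6210 and 6148 CPM (log2 ratio 0.02, -0.18 to 0.20). Eomes, which keeps NK cells mature and separates them from type 1 innate lymphoid cells, was found in 10 of 18 tumour and 16 of 28 LN cells, at 368 and 308 CPM. Id2, needed for innate lymphoid development, had 1004 and 915 CPM, and Irf8 had 1172 and 1670 CPM (-0.51, -0.94 to -0.10). Of 8 compared, 2 were at least 2-fold higher in the tumour. Runx3, a factor of cytotoxic lymphocytes, was found in 12 tumour cells (median 2.0 UMIs) and 10 LN cells (median 0), at 870 and 223 CPM, a log2 ratio of 1.94 (1.21 to 2.77). Bhlhe40 had 1004 and 447 CPM (1.16, 0.58 to 1.77). T cells differed in the same direction for Runx3, with 444 and 117 CPM.

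A single factor of the 8 compared, Klf2, was at least 2-fold lower. Klf2, which keeps lymphocytes quiescent and drives the egress receptor gene S1pr1, had 10 UMIs in 3 tumour cells, 8 of them in 1. In the node it had 86 UMIs in 13 cells, 39 of them in 1 and 26 in another. The cells with 39 and 26 UMIs also held 11 and 38 UMIs of the heat shock gene Hspa1a. The level was 167 and 915 CPM, a log2 ratio of -2.39 (-3.56 to -1.50), and 35.4 and 529 CPM without the highest cell of each. LN T cells likewise had more, 575 against 108 CPM in tumour T cells. S1pr1 itself was too rare to compare, with 0 UMIs in the tumour and 5 in the node, as was Ccr7 with 0 and 6.

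Genes of tissue residence were few. The 15 genes linked to type 1 innate lymphoid cells summed to 703 and 511 CPM (log2 ratio 0.46, -0.17 to 1.09, and 0.46 to 1.39 over the alternatives), and none had enough UMIs to compare. A narrower marker list of 7 of these genes had 28 UMIs in 11 of 18 tumour cells (469 CPM) and 6 UMIs in 6 of 28 LN cells (63.8 CPM), with 461 and 453 CPM in all other kept cells. Itga1 (CD49a) had 9 UMIs in 4 tumour cells, 6 of them in 1, and 1 UMI in the node. Cxcr6, a receptor of resident lymphocytes, had 6 UMIs in 4 tumour cells and 1 in the node. Among tumour cells 2 had both Eomes and Itga1, 8 had Eomes alone and 2 had Itga1 alone. In the node 15 had Eomes alone and 1 had both.

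Of 6 maturation genes compared, 1 was at least 2-fold higher and 1 lower, against 6.12% and 12.4% of all 719 genes. Thy1, found on activated and less mature NK cells, was present in 12 cells of each tissue, at 686 and 181 CPM (log2 ratio 1.90, 1.08 to 2.83), and Emb had 268 and 755 CPM (-1.46, -2.38 to -0.70). Cd27, a gene of immature NK cells, was found in 5 tumour and 11 LN cells, and Itgam (CD11b), a gene of mature NK cells and of myeloid cells, in none of the LN cells and in 1 tumour cell, again the one with Lyz2 and Cd74 UMIs. Of 7 homing genes compared, 3 were lower in the tumour and none was 2-fold higher. Those 3 were the monocyte-type chemokine receptor Ccr2 (184 and 425 CPM, -1.16, -2.32 to -0.22) and the integrin subunits Itga4 (251 and 521 CPM) and Itgb1 (268 and 553 CPM), each at -1.02.

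Receptors for cytokines were close in sum, at 4837 and 5329 CPM (log2 ratio -0.14, -0.35 to 0.07). Il2rb, the shared chain of the interleukin-2 and interleukin-15 receptors, was the most abundant and was found in 17 of 18 tumour and 26 of 28 LN cells, at 1657 and 1234 CPM (0.43, 0.02 to 0.82). Ifngr1 and Stat4, which serve interferon-gamma and interleukin-12 signals, were the 2 of 6 at least 2-fold lower, with log2 ratios of -1.02 (-1.65 to -0.45) and -1.56 (-3.41 to -0.26). Cish, a brake on interleukin-15 signalling in NK cells, fell short of the 30 UMIs, with 18 in 10 tumour cells and 4 in 4 LN cells. Checkpoint genes summed to 2410 and 2851 CPM. Pdcd1 (PD-1) was at 0 in both tissues, Tigit had 1 UMI in each, and Lag3 had 3 and 0. Of 5 compared, only Nr4a2 was past 2-fold. This gene, an early response factor to receptor signals, had 9 UMIs in 5 tumour and 71 in 24 LN cells (-2.26, -3.51 to -1.32).

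**Figure D5:**
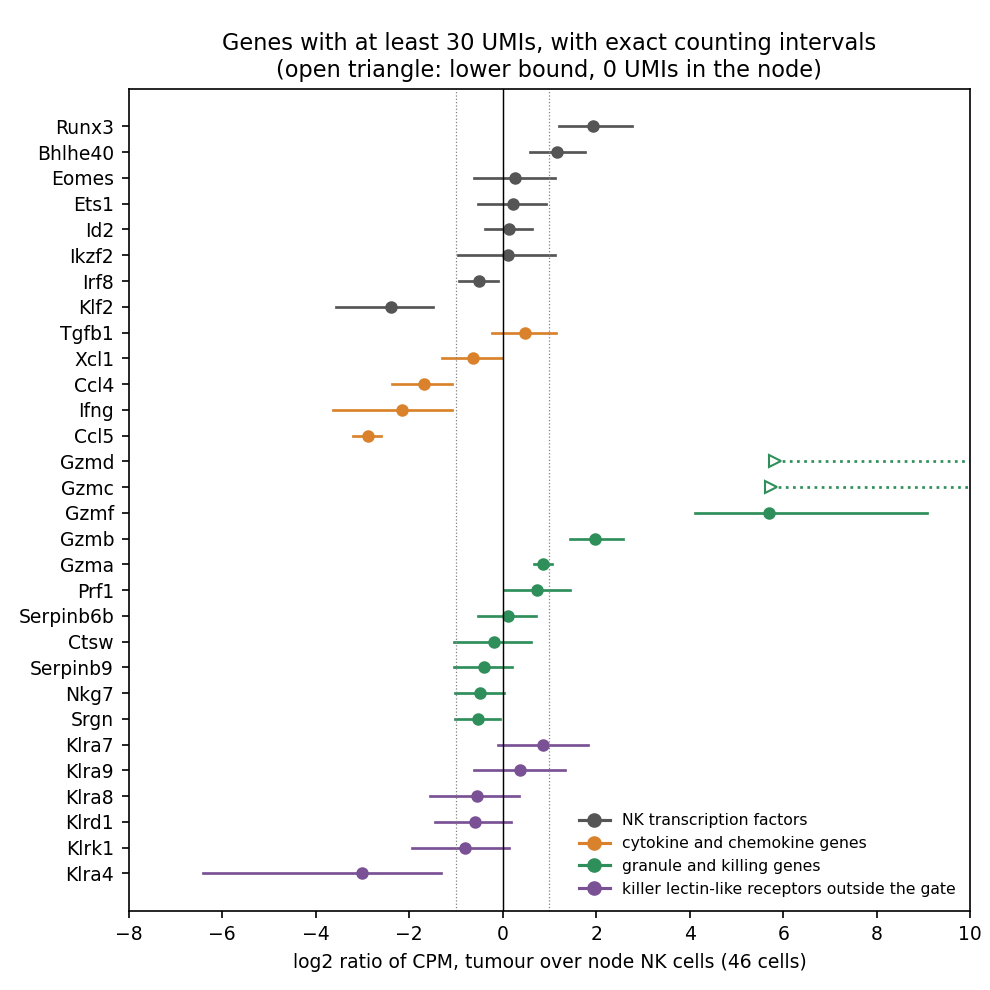
Log2 ratios (x axis, tumour over lymph node CPM) of the 30 genes in 4 lists with at least 30 UMIs in the 46 NK cells, with exact counting intervals as bars, open triangles for lower bounds of genes with 0 UMIs in the node and dotted vertical lines at 2-fold. Gzmb, Gzmc, Gzmd, Gzmf, Runx3 and Bhlhe40 lie above 2-fold, and Ccl5, Ccl4, Ifng, Klf2 and Klra4 below it.

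The interferon response turned with the 6 cells. In the 52 cells all 13 compared genes were lower in the tumour and the list stood at a log2 ratio of -3.44 (-3.81 to -3.11). In the 46 cells no member reached 30 UMIs, and the sums were 1138 and 670 CPM, a log2 ratio of 0.76 (0.25 to 1.28). Part of that tumour sum was 13 UMIs of Rsad2 in the deepest tumour cell, the one with Lyz2 and Cd74 UMIs. The ratio was 0.41 without cells with myeloid genes and 0.04 without cells with T-cell genes, and the cause of these falls was not tested. Genes of MHC class I and peptide loading, which also mark exposure to interferon, summed to 7666 and 9935 CPM (-0.37, -0.54 to -0.21), with 1 of 6 past 2-fold, H2-D1, at 1205 and 2436 CPM (-1.01, -1.42 to -0.63).

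Cell cycle transcripts were higher in the tumour sum. The UMIs of Mki67, Top2a, Tubb5 and Stmn1, the members looked at cell by cell, lay mostly in 3 tumour cells. Cell cycle genes summed to 4486 and 2159 CPM, a log2 ratio of 1.05 (0.79 to 1.33). Mki67 had 21 UMIs in 4 tumour cells and 3 in 2 LN cells, and Top2a, the topoisomerase of dividing cells, had 23 in 4 and 3 in 3. Of these, 3 tumour cells held 7, 3 and 10 UMIs of Mki67 and 5, 10 and 7 of Top2a. Only 4 members of the list reached 30 UMIs. The tubulin gene Tubb5 was past 2-fold, with 46 and 16 UMIs (2.15, 1.33 to 3.10), and Stmn1 had 36 and 32 (0.82, 0.10 to 1.56). The same 3 cells held 13, 13 and 6 of the Tubb5 UMIs and 11, 11 and 12 of the Stmn1 UMIs. Glycolysis and hypoxia genes summed to 4419 and 3340 CPM (0.40, 0.16 to 0.64), with none of 6 past 2-fold, and Ldha, the lactate dehydrogenase gene, stood closest at 736 and 372 CPM. Ribosomal protein genes were near even, at 135641 and 147171 CPM.

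Immediate early and heat shock genes were lower in tumour NK cells. They summed to 9976 and 18614 CPM, a log2 ratio of -0.90 (-1.04 to -0.77), and of 18 compared none was 2-fold higher and 8 were lower (Fos, Jun, Jund, Btg2, Hspa1a, Dnaja1, Dnajb1 and Hsp90aa1). Fos, which encodes a subunit of the AP-1 factor, had 0 UMIs in the tumour and 37 in 11 LN cells, at least 7.84-fold lower. The heat shock gene Hspa1a had 2 UMIs in 1 tumour cell and 80 in 5 LN cells, and the co-chaperone gene Dnaja1 had 15 in 7 and 140 in 25, with log2 ratios of -4.35 (-7.74 to -2.77) and -2.53 (-3.44 to -1.80). T cells shared the direction for these genes, with Fos at 58.8 and 268 CPM, Hspa1a at 72.2 and 165 CPM and Dnaja1 at 351 and 1275 CPM. Such genes respond to tissue handling, and the digestions differed between the tissues, so the contribution of handling cannot be told apart from that of the tissue.

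Beyond the lists, genes were named by a rule of size, the 12 highest and 12 lowest log2 ratios among compared genes found in at least 10% of the NK cells on their higher side and at least as high there as in all other kept cells of that library. For the 46 cells the higher set was Gzmd, Gzmc, Spp1, Gzmf, Nrgn, Plac8, Psap, Tubb5, Rgs16, Gzmb, Runx3 and Thy1. Spp1 (osteopontin) had 104 UMIs in 5 tumour cells, 62 of them in 1, against 1 UMI in the node (log2 ratio 6.78, 4.84 to 12.67). Of those 5 cells, 3 were among the cells with granzymes C to G. Spp1 was also found in 5.06% of cancer cells after thinning, against 21.8% of tumour NK cells. Plac8 was spread more widely, with 70 UMIs in 10 tumour cells and 19 in 7 LN cells (2.51, 1.79 to 3.35), and Rgs16, a regulator of chemokine receptor signals, had 25 and 9 UMIs (2.08, 0.98 to 3.41).

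The lower set was Fos, Hspa1a, Ppp1r15a, Klra4, Ccl5, Ubb, Tob2, Eprs, Dnaja1, Klf2, Sri and Atp11b. Ubb, a ubiquitin gene raised under stress, was found in 13 of 18 tumour and all 28 LN cells, with 28 and 314 UMIs and a log2 ratio of -2.81 (-3.45 to -2.27), and T cells stood at -2.42. Ppp1r15a, a phosphatase subunit of the stress response, had 2 and 35 UMIs (-3.17, -6.58 to -1.51). Sri, which encodes the calcium-binding protein sorcin, had 4 UMIs in 4 tumour cells and 36 in 23 LN cells (-2.37, -4.47 to -1.04), while T cells stood at -0.05.

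The same rule on all 52 cells named a different lower set. It was led by Glycam1, Oasl1 and Fst, and for each of its 12 genes 97.7% to 100% of the UMIs came from the 6 cells set apart. None of these 12 was in the lower set of the 46. Of the 12 higher genes 9 were shared between both sets. Among those not shared, Fn1 (fibronectin) had 41 of its 44 tumour UMIs in the collagen-rich cell.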

How the data were processed

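The authors deposited raw UMI counts per gene and cell for 22620 genes, made with Cell Ranger on GRCm38, in 1 library per tissue. The submitters' processing notes give version 2.1.1 and the file headers 5.0.0. Deposited were 12427 tumour and 11617 LN cells (173317475 and 122207852 UMIs). The counts as deposited were not normalised. The study filtered doublets with DoubletFinder in its own analysis, and whether before deposit is not given in the sources used here.

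Cells with over 200 genes and at most 5% mitochondrial UMIs were kept (156305422 and 120381108 UMIs), without the study's further limit of 6000 genes. The members and gene lists were chosen with earlier results of these data known. The limits that set 6 cells apart, which were also put on T and B cells, were chosen after the cells had been seen. The rule for named genes stands in the report.

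UMIs were summed over cells of a library and scaled to 1000000. Poisson, Clopper-Pearson and conditional binomial intervals are exact at 95%. Thinned shares are expectations over all draws, with cells below 1000 UMIs left out (none of the NK cells). For thinned shares the intervals treat that expectation, rounded, as a count of cells. Doublets were scored with Scrublet in scanpy 1.11.5 and removed only in an alternative. Its automatic threshold marked 633 tumour cells (6.34%) and 0 LN cells, so the top 664 (5.89%) were taken there, and 0 NK cells were marked. NK cells of each library were clustered with the Leiden method (igraph 0.11.9) on 1000 variable genes, 15 components and 10 neighbours at resolution 0.5. The other tools were python 3.11.15, numpy 2.4.6, scipy 1.17.1 and pandas 2.3.3. The intervals and thinning were tested on simulated data.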

Additional observations from a re-analysis of the deposited data

How the results depend on the processing

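In all 52 cells, 306 genes were at least 2-fold higher and 702 lower in the tumour, and the summed lists stood at log2 ratios of 1.40 (killer lectin-like receptors), 2.60 (granule) and -1.85 (cytokine and chemokine). At most 6000 detected genes, the limit of the study methods, gave 176 higher, 347 lower, receptors 0.84 and granule 2.00, and turned maturation genes (-0.34 in all 52 cells) to 0.09 and ribosomal protein genes (0.09) to -0.03. Leaving out the deepest 5% of cells gave 172, 381, 0.85, 1.90 and cytokine -1.60. A gate sum of at least 3 left 9 tumour and 18 LN cells, with 186 higher, receptors 1.99, granule 3.28 and cytokine -1.04, and turned maturation genes to 0.06. Without cells with T-cell genes 11 tumour cells remained, with granule 2.05 and cytokine -1.12. Without cells with myeloid genes the receptors stood at 1.10, granule at 2.18 and cytokine at -1.30. The mean of single-cell CPM gave 450 lower, receptors 0.07 and granule 0.75, and turned adaptors to -0.07, homing genes to -0.07, checkpoint genes to -0.13, MHC class I genes to -0.05, glycolysis genes to 0.09 and ribosomal protein genes to -0.14. A minimum of 100 UMIs gave 77 higher and 192 lower, and of 10 UMIs 1080 and 1505, since other numbers of genes were compared. Leaving out the 6 cells, chosen after seeing the data, gave 44 higher, 89 lower, granule 1.01 and cytokine -2.11. It turned receptors to -0.16, the gate genes to -0.13, adaptors to -0.22, homing genes to -0.19, cytokine receptors to -0.14, checkpoint genes to -0.24, MHC class I genes to -0.37, ribosomal protein genes to -0.12, glycolysis genes to 0.40 and the interferon response to 0.76. Apart from the minimum of UMIs, the cause of these shifts was not tested.

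In the 46 cells no named gene turned its direction where a value existed. Of the lists, 5 near 0 crossed it (gate genes -0.29 to 0.34, homing genes -0.28 to 0.02, transcription factors -0.11 to 0.07, maturation genes -0.51 to 0.05, MHC class I genes -0.46 to 0.01), and receptors ranged from -0.26 to 0.00. The granule list ranged from 0.15 to 1.39, the cytokine and chemokine list from -2.18 to -1.31 and Gzmb from 1.50 to 3.18. The counts of genes past 2-fold ranged widely with the minimum, from 7 higher and 19 lower at 100 UMIs to 306 and 349 at 10 UMIs. A mitochondrial limit of 10%, removal of Scrublet doublets and 1 count added in place of 0.5 moved none of the 18 lists in either set of cells by more than its counting interval. No paired analysis was possible because each tissue has 1 library and no test was run. Depth limits single genes, since 1 UMI stood for 16.7 CPM in the tumour and 10.6 CPM in the node, and small numbers of cells limit every share.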
